A study of Homo sapiens with 77 samples.

Results

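Histone genes named by the older scheme (HIST1H, HIST2H, HIST3H, HIST4H) or the newer scheme (H1-, H2AC, H2BC, H3C, H4C and a digit) were taken from 2 RNA-seq count tables of human B cell lymphoma lines. A member is a gene whose name fits and whose CPM (the count scaled to a common library total) averaged at least 1 over the libraries of a table. Such a name was held by 84 of 35813 genes in the MI-503 table, and 17 were members. It was held by 71 of 21455 genes in the drug combination table, and 21 were members. The label "replication-dependent" holds for 14 of the 17 MI-503 members and for all 21 combination members. Among the other MI-503 members, H1-10 is a linker histone variant made outside S phase as well, and H2BC20P is annotated as a pseudogene. They are kept by the naming rule. The linker variants are left out of some sums below, in which H2BC20P stays. Names of the older scheme are used for the combination table, and name pairs are given where both tables hold a gene.

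The MI-503 table holds KARPAS422, DB, Farage and SUDHL5 cells, each given MI-503 at a dose of 800 nM, or DMSO as its control, and taken after 3 days. The combination table holds KARPAS422 after 48 hours and SuDHL10 after 24 hours with control (CTR), 330 nM VTP50469, 1000 nM EPZ-6438 or both drugs. All lines are diffuse large B cell lymphoma lines, and the study gives KARPAS422, DB and SuDHL10 as EZH2 mutant and Farage and SUDHL5 as EZH2 wildtype. MI-503 and VTP50469 block the binding of menin (MEN1) to MLL proteins, and EPZ-6438 (Tazemetostat) inhibits EZH2, the subunit of PRC2 that methylates H3K27. Doses and times come from the study's legends, each group has 2 libraries, and the labels do not say whether the 2 are separate cultures, so the tests measure the spread between libraries, which may be technical. Per the methods the lines were not authenticated.

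Replication-dependent histone genes supply the core histones H2A, H2B, H3 and H4 and the linker H1 for new DNA, and most lie in a cluster on chromosome 6 with a smaller cluster on chromosome 1. Their transcripts are made in S phase under control of NPAT, usually have no introns, and end in a short stem-loop in place of a poly(A) tail. SLBP binds that stem-loop and takes part in 3′ end formation, export and translation. Some of these genes also give longer transcripts that run past the stem-loop and carry a poly(A) tail, and such forms are known from cells that have left the cycle. The methods name both an Illumina TruSeq RNA kit and depletion of ribosomal RNA, and whether transcripts without a poly(A) tail were read as well as those with one was not tested. Of 22 listed RNAs without such a tail, 0 were matched by name in either table, so they give no measurement here.

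The stem-loop is the sequence that defines the class, so it is shown for the members on which the results below turn. A 16-base stem-loop of 6 stem bases, 4 loop bases and 6 stem bases was found by script in annotated transcripts (GENCODE on hg38), printed as DNA in the sense of the transcript with the stem and loop in capitals.
H2AC6 (HIST1H2AC), chr6:26124664-26124689, plus strand: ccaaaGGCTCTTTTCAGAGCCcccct
H2BC5 (HIST1H2BD), chr6:26158582-26158607, plus strand: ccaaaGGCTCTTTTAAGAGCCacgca
H2BC6 (HIST1H2BE), chr6:26184205-26184230, plus strand: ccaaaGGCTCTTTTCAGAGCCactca
H4C8 (HIST1H4H), chr6:26285126-26285151, minus strand: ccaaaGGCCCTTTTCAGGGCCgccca
H4C3 (HIST1H4C), chr6:26104312-26104337, plus strand: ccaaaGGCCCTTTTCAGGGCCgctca
H2BC12 (HIST1H2BK), chr6:27146361-27146386, minus strand: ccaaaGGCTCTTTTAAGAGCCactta
H1-2 (HIST1H1C), chr6:26055740-26055764, minus strand: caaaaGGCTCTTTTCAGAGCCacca
Over the 24 member genes with a match, 12 carried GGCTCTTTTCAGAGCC, 5 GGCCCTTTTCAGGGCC, 4 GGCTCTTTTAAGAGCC, 2 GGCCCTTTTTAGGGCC and 1 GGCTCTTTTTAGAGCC. The forms with GGCC at the start of the stem belong to H4 genes. H2AC11 (HIST1H2AG) has no match to these letters in its annotated transcript.

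Annotated ends of the members and of the histone names under 1 CPM are given as a description, with no test. Of the replication-dependent members, 8 of 14 (57.14%) in the MI-503 table and 12 of 21 (57.14%) in the combination table have a GENCODE transcript that runs more than 100 bases past the stem-loop or lacks it. Among replication-dependent names under 1 CPM the numbers were 11 of 54 (20.37%) and 6 of 46 (13.04%). Those names are not all silent, since H2BC6 reached 2.61 CPM and H2BC21 3.84 CPM in single libraries. HIST1H2AC (chr6:26124145-26139116), HIST1H2BD (chr6:26158122-26171349), HIST1H2BE (chr6:26172059-26184655) and HIST1H4H (chr6:26277609-26285638) have spliced annotated forms of this kind, whereas HIST1H1C (chr6:26055740-26056470), HIST1H2BK (chr6:27146361-27146855), HIST1H4C (chr6:26103933-26104337) and HIST1H4I (chr6:27139282-27139678) have 1 exon that ends at the stem-loop. The RefSeq annotation gives H2BC12 (HIST1H2BK) a longer span, chr6:27138293-27146858, and that span contains H4C9 (HIST1H4I). The counts do not tell the 2 kinds of transcript apart.

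Promoters of several members are shown because these genes moved together or apart below. Each window holds 250 bases before and 50 after the RefSeq start (GRCh38.p14), and capitals mark the octamer ATTTGCAT, the CCAAT box and the TATA box TATAAA on either strand.
H2AC6, chr6:26123922-26124221, plus strand: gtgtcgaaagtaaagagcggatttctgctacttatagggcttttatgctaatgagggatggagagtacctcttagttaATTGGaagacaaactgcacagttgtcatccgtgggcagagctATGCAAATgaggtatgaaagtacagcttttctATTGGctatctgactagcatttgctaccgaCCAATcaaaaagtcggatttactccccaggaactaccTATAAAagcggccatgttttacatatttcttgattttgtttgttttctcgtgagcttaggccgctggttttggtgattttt
H2BC5, chr6:26157871-26158170, plus strand: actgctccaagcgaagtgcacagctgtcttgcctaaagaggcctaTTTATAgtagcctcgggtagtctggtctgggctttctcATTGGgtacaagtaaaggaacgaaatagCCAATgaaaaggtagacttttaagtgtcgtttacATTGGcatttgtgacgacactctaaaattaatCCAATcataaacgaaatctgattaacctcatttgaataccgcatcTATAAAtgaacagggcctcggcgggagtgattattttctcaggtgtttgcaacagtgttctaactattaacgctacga
H4C8, chr6:26285485-26285784, minus strand: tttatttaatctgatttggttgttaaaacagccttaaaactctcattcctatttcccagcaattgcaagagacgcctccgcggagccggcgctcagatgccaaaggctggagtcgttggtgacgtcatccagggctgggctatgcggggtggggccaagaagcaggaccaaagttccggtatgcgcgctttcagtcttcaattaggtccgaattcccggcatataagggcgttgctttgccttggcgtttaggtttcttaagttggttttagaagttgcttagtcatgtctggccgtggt
H2BC12, chr6:27146809-27147108, minus strand: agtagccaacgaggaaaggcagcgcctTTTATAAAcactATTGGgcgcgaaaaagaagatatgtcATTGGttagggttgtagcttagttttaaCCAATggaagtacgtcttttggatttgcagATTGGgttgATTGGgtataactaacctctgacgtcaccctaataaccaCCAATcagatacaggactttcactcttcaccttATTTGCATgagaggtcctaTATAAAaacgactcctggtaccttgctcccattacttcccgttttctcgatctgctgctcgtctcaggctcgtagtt
The H2AC6 window overlaps that of H2BC4 (HIST1H2BC), which starts on the other strand at chr6:26123877-26124176, so both genes share these boxes. The octamer was in 14 of 18 H2B promoters (77.78%), 11 of 16 H2A promoters (68.75%), 0 of 8 H1 and 0 of 13 H4 promoters, against 1.802% of all 27305 promoters. CCAAT was in every H1, H2A, H2B and H3 promoter window and in 3 of 13 of H4 (23.08%), against 35.7% of all promoters, and TATAAA was in 11.95% of all promoters. Promoter windows were found for 15 of 17 and 19 of 21 members. H4C8 and H2BC5 hold no octamer in the window, H4C8 holds none of the 3 motifs, and H2AC6 and H2BC12 hold all 3.

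Library totals ran from 13034958 to 54883332 counts in the MI-503 table and from 8956156 to 31573027 in the combination table, and histone counts are a small share of them. B cell markers were present in every library of the MI-503 table (7 of 7 measured, summed level 3018 to 3838 CPM) and of the combination table (summed level 2937 to 5258 CPM). T cell markers summed to 163 to 193 CPM in KARPAS422 of the MI-503 table, against 1.17 to 3.24 CPM in the other lines. In the combination table they summed to 246.5 to 334.7 CPM in KARPAS422 and 0.487 to 1.854 CPM in SuDHL10. These sums do not stand for each marker. In control cells the log2 difference of SuDHL10 minus KARPAS422 was -13.02 for CD3D and -11.22 for CD3G, but -0.36 ± 0.40 (SE) for CD3E. The source of these reads was not tested. In Farage, MI-503 replicate 1 stood apart. Globin (HBB) reached 25.9 CPM in it and keratin (KRT14) 20.5 CPM, while the other Farage libraries had at most 0.14 and 0.06 CPM. The part of these reads in any histone value was not tested, and values without that library are given beside the Farage result. KARPAS422 stands in both tables, but H4C9 was at 0.08 to 0.22 CPM in the MI-503 table and the same gene, as HIST1H4I, at 21.3 to 26.8 CPM in the combination table, so levels are compared only within a table. Scaling by library totals in place of TMM (edgeR's factors for library composition) moved the median log2 value of all genes by 0.23 for both drugs against control in KARPAS422, 0.13 for both drugs against EPZ-6438 and 0.10 for EPZ-6438 there, by 0.13 and -0.12 for the DMSO levels of KARPAS422 and Farage, and by -0.18 for SuDHL10 against KARPAS422 controls. It moved the others by less than 0.1.

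Without drug, KARPAS422 held the highest summed level of members other than the linker variants in the MI-503 table and Farage the lowest. The pseudogene H2BC20P is counted in these sums. The summed CPM of members other than the linker variants was 148 ± 6.15 (SD, n = 2) in KARPAS422, 36.9 ± 3.13 in SUDHL5, 20.3 ± 0.94 in DB and 12.3 ± 5.35 in Farage. KARPAS422 lay far above the others, and the ranges of DB and Farage libraries (19.7 and 21 against 8.52 and 16.1 CPM) came closest to each other. H1-10 alone was at 228 and 215 CPM in SUDHL5, 125 and 135 in KARPAS422, 24.2 and 22.3 in DB and 12.7 and 11.3 in Farage. Over all members the sums were 278 ± 0.92 CPM in KARPAS422, 259 ± 6.01 in SUDHL5, 51.9 ± 0.22 in DB and 24.8 ± 4.32 in Farage. That order was the same, but over TMM library sizes the KARPAS422 and SUDHL5 sums were 271.9 and 273.8 CPM.

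Compared with the mean of the other 3 lines, KARPAS422 had 14 of 17 members higher and 2 lower at an adjusted p under 0.1 (edgeR's quasi-likelihood test with Benjamini-Hochberg adjustment over all genes, used throughout), where 43.9% of all tested genes were higher and 37.3% lower. Of the 14 replication-dependent members 12 were higher and 1 lower. The 1 CPM limit is a mean over all libraries, so a gene high in 1 line can be a member through that line. H2AC19, for example, was at 12.75 to 26.02 CPM in KARPAS422 libraries and at most 3.68 CPM in the others. The counts by line are thus partly set by the choice of members, and the background genes were not chosen that way. H2BC12 stood at 49.9 and 46.8 CPM against 1.26 to 2.20 CPM in the other DMSO libraries, a log2 difference of 4.89 ± 0.09 (SE, adjusted p = 2.0e-15). H2BC11 (log2 difference 3.89 ± 0.20), H1-2 (3.83 ± 0.12) and H2BC5 (3.22 ± 0.14), which encode further H2B proteins and the linker H1.2, were also higher. The copies H2AC18 and H2AC19 share nearly all of their 50-base words (100% and 99.79%), and reads were split between them unevenly, with H2AC18 at 1.09 and 7.74 CPM and H2AC19 at 26.02 and 18.9 CPM in the KARPAS422 DMSO libraries. H2AC19 alone had a larger log2 difference than H2BC12 (8.15 with library totals), which rests on this split. The sum of both copies (27.1 and 26.6 CPM) was higher than in the other lines by 4.65 ± 0.13 on the log2 scale (adjusted p = 1.6e-13). H2BC8 went the other way at 0.20 and 0.11 CPM (log2 difference -3.01 ± 0.37).

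The other lines differed in other members. In DB 2 of 17 members were higher and 6 lower (background 41.5% and 40.6%), with H2BC8 among the higher ones (log2 difference 1.55 ± 0.31). In SUDHL5 4 were higher and 8 lower (background 42% and 37%), with H2AC6 at 18.8 and 21.5 CPM (log2 difference 3.31 ± 0.11), H1-10 (2.83 ± 0.05) and H2BC8 (2.05 ± 0.27) leading. In Farage 1 was higher and 12 lower (background 40.8% and 38.5%). H2AC6 was lowest there at 0.41 and 0.63 CPM (log2 difference -3.63 ± 0.23). H2AC6 therefore ranged from under 1 CPM in Farage to about 20 CPM in SUDHL5, with KARPAS422 (4.23 and 4.78 CPM) and DB (4.29 and 3.68 CPM) between them and overlapping each other.

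**Figure D1:**
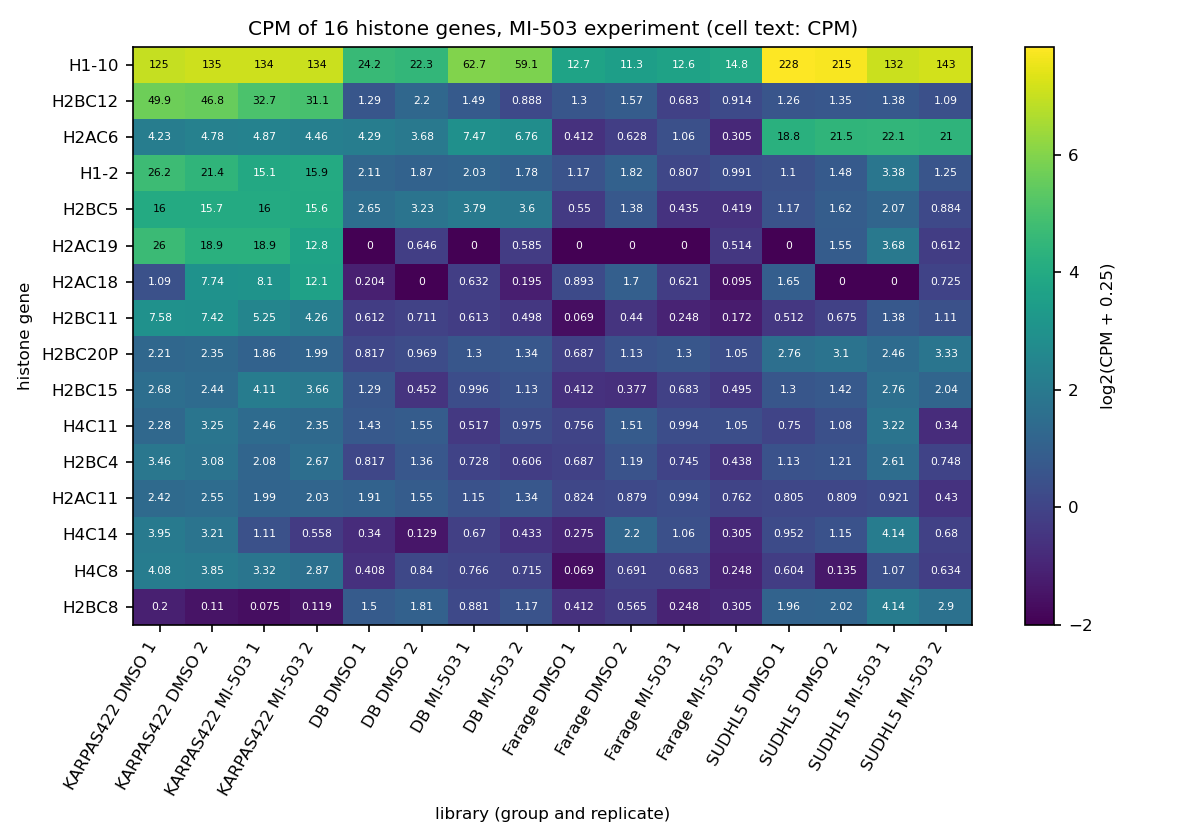
CPM of 16 members (rows) in the 16 libraries of the MI-503 experiment (columns), with the CPM printed in each cell and colour on the scale log2(CPM + 0.25). H2BC12, H1-2, H2BC5 and H2BC11 are brightest in the 4 KARPAS422 libraries, and H1-10 is brightest in SUDHL5 with DMSO at 228 and 215 CPM.

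In the combination table the control cells of the 2 lines differed in many members. Controls belong to a 24-hour experiment in SuDHL10 and a 48-hour experiment in KARPAS422, so line and time cannot be told apart. SuDHL10 against KARPAS422 in control cells had 8 of 21 members higher and 8 lower, with a background of 30.6% and 31.8% (3561 and 3708 genes, or 2631 and 4565 with library totals). Among the higher ones HIST1H2BL, HIST1H2BH, HIST2H2AC and HIST1H2BG were under 1 CPM in every KARPAS422 library. They became members through SuDHL10 alone, so their differences and this count are partly set by the choice of members. HIST1H2BK (H2BC12) was at 49.5 and 59.8 CPM in KARPAS422 and at 4.99 and 3.93 CPM in SuDHL10, a log2 difference of -3.44 ± 0.20 (adjusted p = 6.9e-08). HIST1H4I (-3.65 ± 0.24) and HIST1H2BJ (H2BC11, -2.94 ± 0.25) were also lower in SuDHL10. HIST2H2AC stood at 8.52 and 7.18 CPM in SuDHL10 and 0.078 and 0.163 CPM in KARPAS422 (log2 difference 6.05 ± 0.45). HIST1H2BL and HIST1H2BH had 0 counts in both KARPAS422 control libraries and means of 6.31 and 4.53 CPM in SuDHL10, which makes them at least 65-fold and at least 47-fold higher against a floor of 3 counts over the group. They stayed at 0 in 7 of 8 and 5 of 8 KARPAS422 libraries of the table. Their newer names H2BC13 and H2BC9 were at 0 and at most 0.04 CPM in the 4 KARPAS422 libraries of the MI-503 table too. Per length of annotated exon, the highest members averaged over all combination libraries were HIST1H2BK (51.3 CPM per kb), HIST1H4I (32.7), HIST1H1C (25.2), HIST2H2AC (7.89) and HIST1H3J (2.46) for H2B, H4, H1, H2A and H3, and in the MI-503 table H1-10 (60.4), H2BC12 (22.2), H2AC19 (9.85) and H4C11 (3.94), with no H3 gene over 1 CPM. HIST1H4I lies within the RefSeq span of HIST1H2BK, so its rank may include reads of that gene. The ranks did not hold in each line. In SuDHL10 HIST1H2BL (12.99 CPM per kb) and HIST1H4C (29.1) were the highest H2B and H4 members, and in KARPAS422 HIST1H2AC (7.58) was the highest H2A member. In the MI-503 table H2AC19 was the highest H2A member in KARPAS422 (35.8), whereas H2AC6 was in SUDHL5 (12.5) and DB (3.33).

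**Figure D2:**
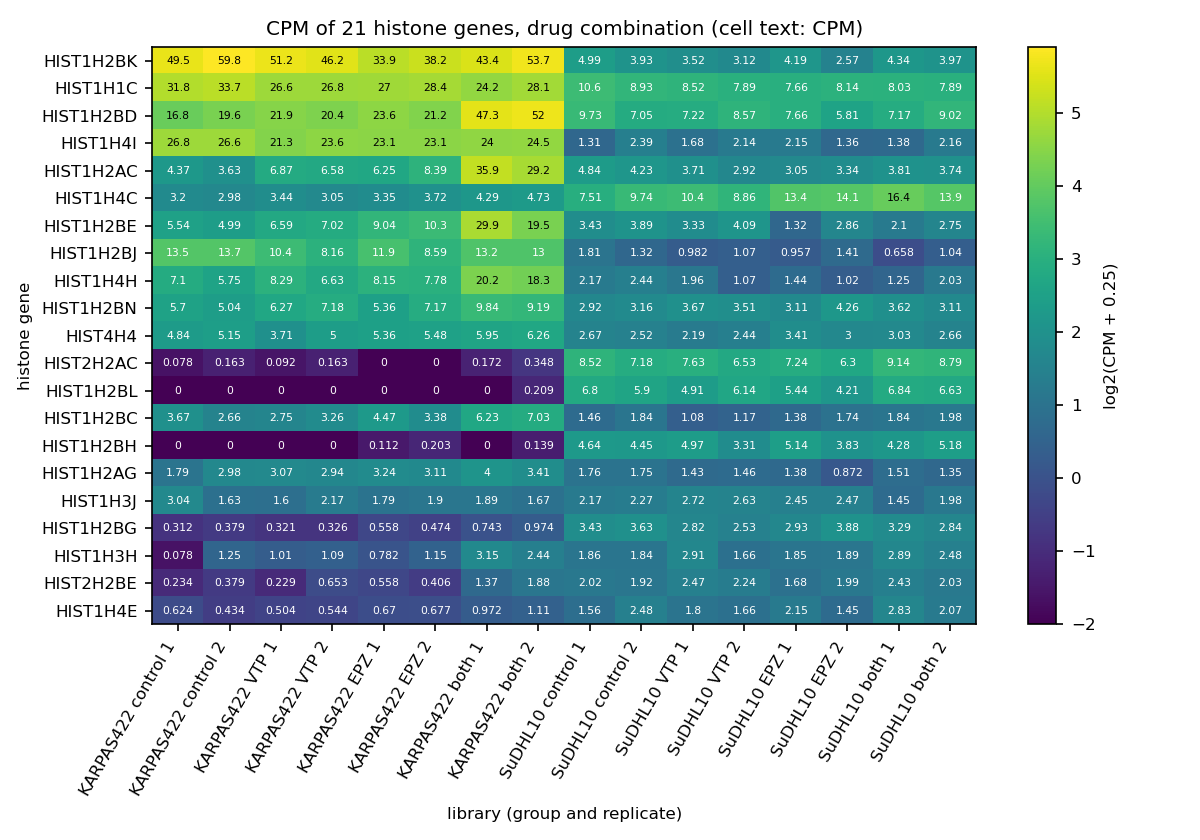
CPM of the 21 members (rows) in the 16 libraries of the drug combination experiment (columns), with the CPM printed in each cell and colour on the scale log2(CPM + 0.25). HIST2H2AC, HIST1H2BL and HIST1H2BH are near 0 in KARPAS422 and between 3.31 and 9.14 CPM in SuDHL10, and HIST1H2AC is at 35.9 and 29.2 CPM in KARPAS422 with both drugs against 2.92 to 8.39 CPM in the other libraries.

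MI-503 in KARPAS422 was followed by lower levels of H2BC12, H2BC11 and H1-2, which stood far above the other lines there, but not of H2BC5 or H1-10. Of 15 tested members 1 was higher and 7 were lower, where 25.5% of all 14495 tested genes were higher and 26.3% lower, and the median log2 change of the members was -0.35 against 0.007 for all genes. H2BC12 went from 49.9 and 46.8 CPM to 32.7 and 31.1 CPM (log2 fold change -0.63 ± 0.05, SE, adjusted p = 5.9e-06). H1-2 went from 26.2 and 21.4 to 15.1 and 15.9 CPM (-0.66 ± 0.09, adjusted p = 0.0002). The treated libraries lay below both DMSO libraries for each gene.
H2BC11 (log2 fold change -0.67 ± 0.12), H2BC4 (-0.53 ± 0.18) and H4C8 (-0.38 ± 0.15) were lower as well. H4C14 fell by 2.03 ± 0.26 on the log2 scale, from 3.95 and 3.21 to 1.11 and 0.56 CPM, but its sequence is wholly shared with H4C15 and its reads cannot be assigned. H2AC19 was called lower (-0.49 ± 0.16), while the sum of H2AC18 and H2AC19 was not (-0.08 ± 0.06, adjusted p = 0.31). H2BC15 was the member called higher, from 2.68 and 2.44 to 4.11 and 3.66 CPM (0.58 ± 0.16, adjusted p = 0.012). H1-10 (0.00 ± 0.04), H2BC5 (-0.03 ± 0.07) and H2AC6 (0.03 ± 0.13), all above 4 CPM, had changes within 1 SE of 0. With DESeq2 the counts were 1 higher and 4 lower. The summed level without linker variants went from 148 ± 6.15 to 115 ± 3.89 CPM (SD, n = 2).

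In DB the largest change was in the linker variant H1-10, from 24.2 and 22.3 CPM to 62.7 and 59.1 CPM (log2 fold change 1.32 ± 0.06, adjusted p = 4.2e-09). Of 16 tested members 3 were higher and 3 lower, with a background of 34.5% and 34.7%. H2AC6 rose from 4.29 and 3.68 to 7.47 and 6.76 CPM (0.76 ± 0.15, adjusted p = 0.00065). H4C11 (-1.09 ± 0.37), H2BC8 (-0.77 ± 0.30) and H2BC4 (-0.78 ± 0.37) were lower at levels under 2 CPM. DESeq2 called 2 higher, H1-10 and H2AC6, and 0 lower. The DMSO libraries of DB held 14695930 and 15474692 counts and the treated ones 52236459 and 46170498, so depth and treatment cannot be told apart for its low members.

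SUDHL5 showed the opposite direction for H1-10, from 228 and 215 CPM to 132 and 143 CPM (log2 fold change -0.71 ± 0.05, adjusted p = 6.0e-06). Of 16 tested members 3 were higher and this 1 was lower, with a background of 26.3% and 28.7%. H2BC8 (0.76 ± 0.26, adjusted p = 0.036), H2BC11 (1.07 ± 0.41, 0.057) and H2BC15 (0.78 ± 0.31, 0.066) were higher. H2BC8 was at 1.96 and 2.02 CPM with DMSO and at 4.14 and 2.90 CPM with MI-503. Replicate 1 with MI-503, the shallowest library of the table at 13034958 counts, held the higher value for most low members, such as H4C11 at 3.22 against 0.34 CPM in replicate 2 and H4C14 at 4.14 against 0.68 CPM. Without that library 0 members were higher and 2 lower, and without MI-503 replicate 2 there were 7 higher and 2 lower. DESeq2 called H1-10 alone. H2AC6, the line's leading core histone gene, was at 18.8, 21.5, 22.1 and 20.98 CPM in the 4 libraries (0.09 ± 0.09, adjusted p = 0.46).

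In Farage the members were low, and few reads stood behind each value. Of 11 tested members 0 were called higher and 1 lower, where 12.3% of all genes were higher and 14.7% lower (1555 and 1866 genes, or 2178 and 1333 with library totals). The 1 call was H2AC18 (log2 fold change -2.37 ± 0.73, adjusted p = 0.047), which passed the count minimum through the DMSO libraries alone, and the sum with its copy H2AC19 was not called (-1.12 ± 0.44, adjusted p = 0.10). By edgeR 1 member had an unadjusted p under 0.05, and DESeq2 called 0. H1-10 was at 12.7 and 11.3 CPM with DMSO and 12.6 and 14.8 CPM with MI-503 (0.17 ± 0.12). Without MI-503 replicate 1, the library with keratin and globin reads, 2 were lower (H2AC18 and H4C14) and H1-10 was called higher (0.28 ± 0.11, adjusted p = 0.087). Without either DMSO library 0 were called, and without MI-503 replicate 2 there was 1 higher and 0 lower.

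**Figure D3:**
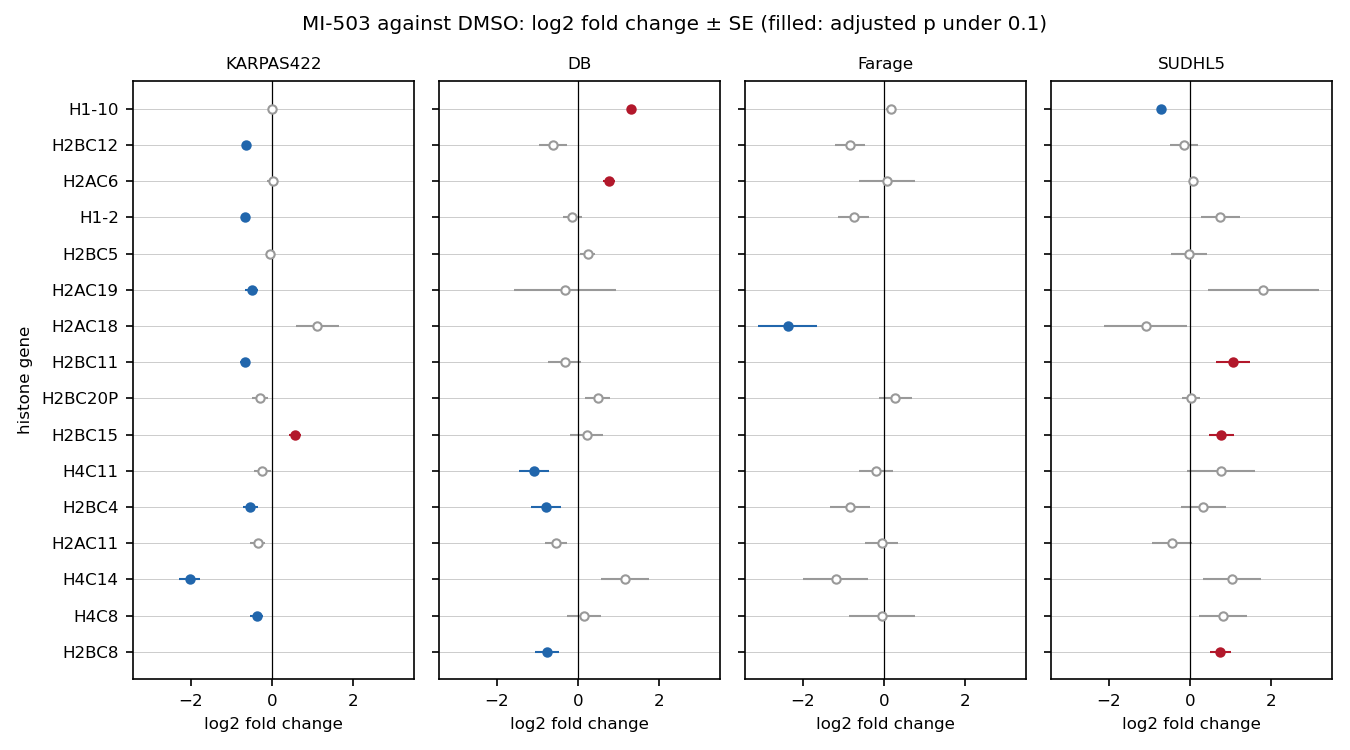
Log2 fold change of MI-503 against DMSO with its SE (bars) for the members shown that were tested in each line, with those at an adjusted p under 0.1 filled in red (higher) or blue (lower) and untested members left blank. H2BC12 and H1-2 are filled blue in KARPAS422 alone, but both also lay below the DMSO libraries in each treated Farage library without being called. H1-10 is at 1.32 in DB and -0.71 in SUDHL5.

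The study set the response of EZH2 mutant lines against that of wildtype lines, so the difference in MI-503 effect was tested directly. Between KARPAS422 and Farage 2 of 17 members had a higher change in KARPAS422 and 0 a lower one (background 9.52% and 14.7%), namely H2BC5 (log2 difference of changes 1.17 ± 0.39, adjusted p = 0.057) and H2AC18 (3.62 ± 1.38, 0.093). H2BC5 had a log2 fold change of -0.03 ± 0.07 in KARPAS422 and went from 0.55 and 1.38 to 0.43 and 0.42 CPM in Farage. Leaving out 1 of the 8 libraries moved this count. There were 2 higher and 2 lower without Farage MI-503 replicate 1, 1 higher and 0 lower without KARPAS422 MI-503 replicate 2 or Farage DMSO replicate 1, and 0 higher and 1 lower without KARPAS422 MI-503 replicate 1, Farage DMSO replicate 2 or Farage MI-503 replicate 2. For KARPAS422 and DB against Farage and SUDHL5 there were 3 higher and 0 lower (background 13% and 18.9%). H1-10 gave 0.90 ± 0.10 (adjusted p = 2.5e-06) and was called in all 16 fits that left out a library, H2BC5 gave 0.76 ± 0.31 (0.081), called in 4 of 16, and H2AC18 gave 3.34 ± 1.31 (0.069), which the sum of the copies did not hold (0.67 ± 0.42, 0.28). The count was 1 without KARPAS422 MI-503 replicate 2, DB DMSO replicate 2 or DB MI-503 replicate 1. With 2 lines to a state the test covers the spread between libraries and not between lines, and for H1-10 the fold changes of the mutant lines were 0.00 (KARPAS422) and 1.32 (DB) and those of the wildtype lines 0.17 (Farage) and -0.71 (SUDHL5). For H2BC12, the member with the smallest adjusted p in KARPAS422, the log2 fold change in Farage was -0.83 ± 0.37 and the tested difference 0.11 ± 0.25 (adjusted p = 0.83).

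With both VTP50469 and EPZ-6438 for 48 hours, KARPAS422 raised a group of H2A, H2B and H4 genes. Of 18 tested members 6 were higher and 3 lower, where 23.5% of 13223 tested genes were higher and 25.2% lower, and the members' median log2 change was 0.67 against 0.10 for all genes. HIST1H2AC (H2AC6) was at 4.37 and 3.63 CPM in control cells, 6.87 and 6.58 with VTP50469, 6.25 and 8.39 with EPZ-6438 and 35.9 and 29.2 with both. Both libraries with both drugs lay far above the other 6, and the log2 fold change was 2.81 ± 0.25 (adjusted p = 0.00057).
HIST1H2BD (H2BC5) went from 16.8 and 19.6 CPM to 47.3 and 52.0 CPM (log2 fold change 1.22 ± 0.11, adjusted p = 0.0006). HIST1H2BE (H2BC6) went from 5.54 and 4.99 to 29.9 and 19.5 CPM (2.03 ± 0.29, 0.0026), and HIST1H4H (H4C8) from 7.10 and 5.75 to 20.2 and 18.3 CPM (1.37 ± 0.24, 0.0051). These 4 genes, 3 encoding H2A and H2B and 1 encoding H4, were called in all 8 fits that left out a library, with RLE size factors, with library totals alone and with DESeq2. HIST2H2BE (2.13 ± 0.76, adjusted p = 0.066) and HIST1H2BC (0.83 ± 0.34, 0.098) were called in 1 of those 8 fits each and not by DESeq2. HIST2H2BE passed the count minimum through the libraries with both drugs alone, at 1.37 and 1.88 CPM against 0.23 to 0.65 CPM elsewhere in the line, as did HIST1H2BG, which was not called. With the replicate number as a block 8 were higher and 3 lower, and shares of all genes with the block are not given here. The block added HIST1H2BN (0.61 ± 0.26, adjusted p = 0.067) and the H3 gene HIST1H3H (1.98 ± 0.80, 0.058), the latter at 0.08 and 1.25 CPM in control.

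The members that were lower with both drugs were the linker gene HIST1H1C (H1-2), from 31.8 and 33.7 to 24.2 and 28.1 CPM (log2 fold change -0.55 ± 0.08, adjusted p = 0.0021), HIST1H2BK (H2BC12, -0.41 ± 0.12, 0.033) and HIST1H4I (H4C9, -0.36 ± 0.10, 0.033). HIST1H2BK libraries overlapped, at 49.5 and 59.8 CPM in control and 43.4 and 53.7 CPM with both drugs. HIST1H4I lies within the RefSeq span of HIST1H2BK, and whether the reads of these genes are separate was not tested. Scaling by library totals moved the median of all genes from 0.10 to 0.33 and left HIST1H1C called (-0.32) but not HIST1H2BK (-0.17) or HIST1H4I (-0.14). With that scaling 4399 genes were higher and 2396 lower, against 3108 and 3333 with TMM. In GENCODE all 6 members called higher have a transcript past the stem-loop or without it, 0 of the 3 called lower do, and 6 of the 9 not called do. The 6 include HIST2H2BE, which passed the count minimum through the libraries with both drugs alone. HIST2H2BE and HIST1H2BC were not called by DESeq2, and a link between call and transcript end was not tested. RefSeq spans differ from the GENCODE ends, since HIST1H2BK runs past its stem-loop there, and HIST1H2AC (chr6:26124172-26124690), HIST1H2BE (chr6:26183761-26184230) and HIST1H4H (chr6:26285126-26285534) end at theirs. The summed member level was 185 ± 8.42 CPM in control, 174 ± 3.18 with VTP50469, 171 ± 3.04 with EPZ-6438 and 277 ± 0.64 with both (SD, n = 2). The count of called members fell to 5 without VTP50469 replicate 1 or EPZ-6438 replicate 2, and to 6 without control replicate 1 or VTP50469 replicate 2, and stood at 7 to 9 without any other library.

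Against EPZ-6438 alone, both drugs gave 4 higher and 0 lower members (background 10% and 10.9%). They were HIST1H2AC (log2 fold change 2.04 ± 0.25, adjusted p = 0.0080), HIST1H2BD (1.03 ± 0.11, 0.0071), HIST1H2BE (1.26 ± 0.29, 0.039) and HIST1H4H (1.16 ± 0.24, 0.030). The count was 0 without VTP50469 replicate 1 or EPZ-6438 replicate 2, 2 without VTP50469 replicate 2 or EPZ-6438 replicate 1, and 5 or 6 without a library of both drugs.
EPZ-6438 alone gave 0 higher and 2 lower members (background 8.27% and 10%), HIST1H2BK at 33.9 and 38.2 CPM (-0.70 ± 0.12, adjusted p = 0.020) and HIST1H1C at 27.02 and 28.4 CPM (-0.34 ± 0.08, 0.039). DESeq2 called 0 higher and 1 lower, and 5 members were under an unadjusted p of 0.05. With the replicate number as a block there were 2 higher and 3 lower, the higher ones being HIST1H2AC (0.81 ± 0.25, adjusted p = 0.059) and HIST1H2BE (0.80 ± 0.26, 0.077). The background above is that of the fit without the block. With library totals alone there were 2 higher and 1 lower, and of all genes 1584 higher and 797 lower in place of 1093 and 1326. The count was 0 without VTP50469 replicate 1 or EPZ-6438 replicate 2, 1 without either control, VTP50469 replicate 2 or EPZ-6438 replicate 1, and 5 or 6 without a library of both drugs.
VTP50469 alone gave 0 higher and 0 lower members (background 3.18% and 0.197%, which is 421 and 26 genes, or 572 and 194 with library totals) by edgeR and by DESeq2, with 4 members under an unadjusted p of 0.05. HIST1H2AC had 0.75 ± 0.25 (adjusted p = 0.26) and HIST1H1C -0.30 ± 0.07 (0.14), and without replicate 2 of both drugs 2 members were called. The interaction of the 2 drugs was not tested, and the comparisons in a line share its control libraries.

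**Figure D4:**
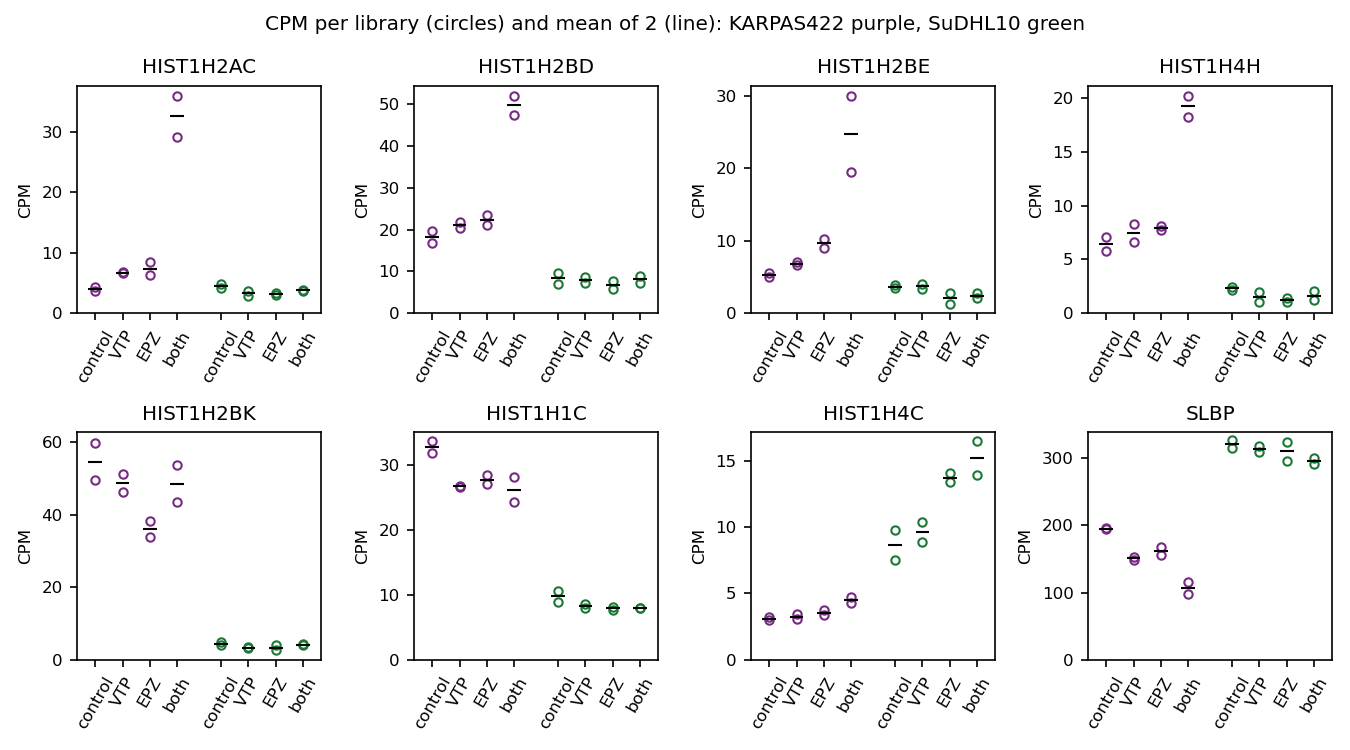
CPM in each library (circles) and the mean of 2 (line) for 7 members and SLBP, with KARPAS422 in purple and SuDHL10 in green, from control to both drugs (both). HIST1H2AC, HIST1H2BD, HIST1H2BE and HIST1H4H stand apart in KARPAS422 with both drugs, whereas SLBP is lowest there at 115 and 97.5 CPM.

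In SuDHL10 after 24 hours the same drugs were followed by few calls. These values stand beside those of KARPAS422 without a comparison, since the times differ. Both drugs gave 1 of 21 members higher and 1 lower (background 13.7% and 7.93%, which is 1564 and 905 genes, or 1807 and 272 with library totals). HIST1H4C (H4C3) went from 7.51 and 9.74 to 16.4 and 13.9 CPM (log2 fold change 0.73 ± 0.16, adjusted p = 0.017), and HIST1H2BJ from 1.81 and 1.32 to 0.66 and 1.04 CPM (-0.90 ± 0.32, 0.097). HIST1H4C was called in 7 of 8 fits that left out a library and by DESeq2, HIST1H2BJ in 2 of 8 and not by DESeq2. In KARPAS422 HIST1H4C was at 3.20 and 2.98 CPM in control and 4.29 and 4.73 CPM with both drugs (0.32 ± 0.31, adjusted p = 0.42). Of the genes that led in KARPAS422, 0 were called here without the block. HIST1H2AC was at 4.84 and 4.23 CPM in control and 3.81 and 3.74 CPM with both (-0.34 ± 0.18, adjusted p = 0.24), and HIST1H2BD at 9.73 and 7.05 and at 7.17 and 9.02 CPM (-0.11 ± 0.22, 0.77).
EPZ-6438 alone gave 1 higher, HIST1H4C at 13.4 and 14.1 CPM (0.58 ± 0.16, adjusted p = 0.047), and 3 lower (background 12.1% and 5.39%), HIST1H2AC (-0.59 ± 0.19, 0.076), HIST1H4H (-1.02 ± 0.33, 0.086) and HIST1H2BE (-0.87 ± 0.30, 0.098). With the replicate number as a block there were 1 higher and 7 lower for EPZ-6438, and 1 higher and 3 lower for both drugs. The background shares above are from the fit without the block, so these counts stand without a background. The lower ones for both drugs were HIST1H2BE (-0.66 ± 0.22, adjusted p = 0.026), which was higher in KARPAS422, HIST1H2BJ (-0.90 ± 0.33, 0.038) and HIST1H1C (-0.36 ± 0.14, 0.046). With library totals or DESeq2 HIST1H4C alone was called for EPZ-6438, and totals gave 1689 genes higher and 200 lower in all against 1384 and 615. For EPZ-6438 the count was 0 without control replicate 1, 1 without control replicate 2 or either library of both drugs, and 2 without EPZ-6438 replicate 2. For both drugs it was 0 or 1 without a library of both drugs, 1 without a control or VTP50469 library and 4 without an EPZ-6438 library.
VTP50469 alone gave 0 called members, and 0% of all 11409 genes were called higher and 0% lower, with 2 members under an unadjusted p of 0.05 and 0 called by DESeq2. Both drugs against EPZ-6438 also gave 0 by edgeR and by DESeq2 (background 1.77% and 2.7%), with 2 under an unadjusted p of 0.05. The block called HIST2H2AC (0.43 ± 0.14, adjusted p = 0.036) and HIST1H2BL (0.51 ± 0.18, 0.046) higher, and 3 were called without EPZ-6438 replicate 1.

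**Figure D5:**
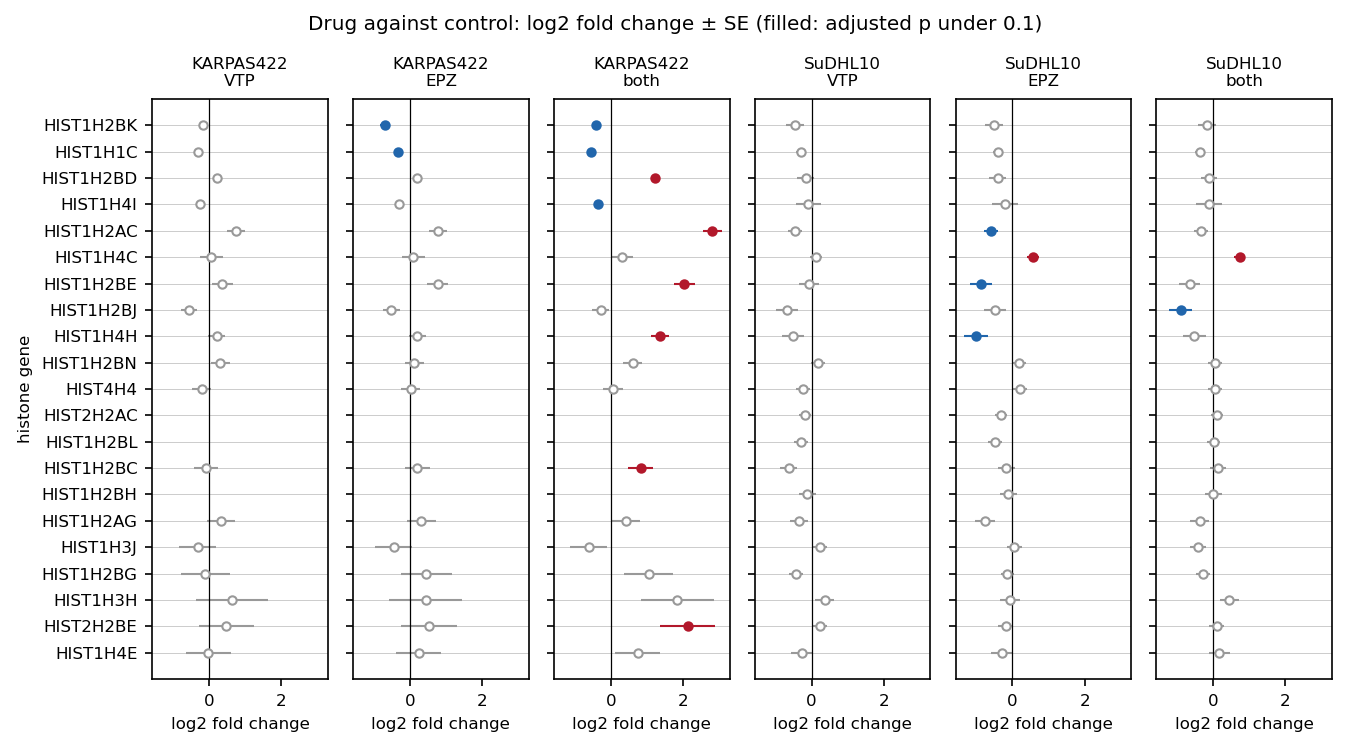
Log2 fold change of each drug against control with its SE (bars) for each tested member, with members at an adjusted p under 0.1 filled in red (higher) or blue (lower), for KARPAS422 at 48 hours and SuDHL10 at 24 hours. HIST1H2AC is at 2.81 with both drugs in KARPAS422 and at -0.34 in SuDHL10.

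Genes that serve histone mRNA and S phase were read beside the members. SLBP, the stem-loop binding protein, went from 196 and 194 CPM in KARPAS422 control to 115 and 97.5 CPM with both drugs (log2 fold change -1.09 ± 0.17, adjusted p = 0.0031), and NPAT, the coactivator of histone gene transcription, from 172 and 138 to 139 and 102 CPM (-0.57 ± 0.23, 0.099). With MI-503 SLBP was lower in KARPAS422 (-0.46 ± 0.03), DB (-0.71 ± 0.05), SUDHL5 (-0.94 ± 0.07) and Farage (-0.17 ± 0.05, adjusted p = 0.029), and the tested difference between KARPAS422 and Farage was -0.31 (adjusted p = 0.0087). NPAT was lower in KARPAS422, DB and SUDHL5 (-0.47 ± 0.04, -0.71 ± 0.05 and -0.66 ± 0.06) with -0.01 ± 0.05 in Farage. In SuDHL10 with both drugs SLBP had -0.19 ± 0.08 (adjusted p = 0.14) and NPAT -0.46 ± 0.15 (0.069).
Of 32 S-phase and replication genes, such as the MCM helicase subunits and RRM2, MI-503 left 31 lower and 0 higher in KARPAS422 (median log2 change -0.53), 31 and 0 in DB (-1.14), 30 and 1 in SUDHL5 (-0.85) and 15 and 2 in Farage (-0.10). Of all genes 26.3%, 34.7%, 28.7% and 14.7% were lower in these lines. In Farage 7 and 6 were lower without DMSO replicate 1 and 2, and 14 without MI-503 replicate 1, the library with globin and keratin reads. Both drugs in KARPAS422 left 29 of 31 lower and 0 higher (-0.998), for example MCM2 at -1.46 ± 0.11 and CDC45 at -1.41 ± 0.11, and 25 to 30 were lower over the fits that left out a library. EPZ-6438 alone in KARPAS422 left 13 of 31 lower (0 to 20 with a library left out), where 10% of all genes were lower. With both drugs 25.2% of all genes were lower there. VTP50469 alone left 0 lower by edgeR, 4 by DESeq2 and 5 with library totals. In SuDHL10 the numbers were 6 of 32 for EPZ-6438, 0 for VTP50469 and 2 for both, where 5.39%, 0% and 7.93% of all genes were lower. The numbers were 0 for each under library totals and 19, 0 and 7 with the block. Shares of all genes with the block are not given here. With a library left out they ranged from 0 to 6 for EPZ-6438 and from 0 to 3 for both. In bulk RNA, fewer cells in S phase and less of each RNA per cell cannot be told apart. HIST1H2AC, HIST1H2BD, HIST1H2BE and HIST1H4H were therefore higher in the same KARPAS422 libraries in which SLBP and most S-phase genes were lower.
Of 18 histone chaperones, which carry new histones to DNA, MI-503 left 14 lower and 1 higher in KARPAS422, 17 and 0 in DB, 16 and 1 in SUDHL5 and 5 and 0 in Farage, against the same 26.3%, 34.7%, 28.7% and 14.7% of all genes lower. In Farage 2 and 1 were lower without DMSO replicate 1 and 2. Both drugs left 12 of 16 lower in KARPAS422 (25.2% of all genes), among them CHAF1A (-1.28 ± 0.11) and SSRP1 (-1.02 ± 0.10), and 3 of 15 in SuDHL10 (7.93%). The SuDHL10 count was 0 without control replicate 2 or either library of both drugs and 1 without a VTP50469 library.
Of 19 tested genes of histone mRNA 3′ end processing and decay, 10 were lower and 4 higher in KARPAS422 with MI-503, 16 and 1 in DB, 7 and 5 in SUDHL5 and 5 and 1 in Farage. Beside these, 26.3%, 34.7%, 28.7% and 14.7% of all genes were lower and 25.5%, 34.5%, 26.3% and 12.3% higher. In SUDHL5 the share higher was near the 26.3% of all genes, with 1 higher without DMSO replicate 2 or MI-503 replicate 2 and 3 without MI-503 replicate 1. In KARPAS422 2 were higher without MI-503 replicate 1. In Farage 1 and 2 were lower without DMSO replicate 1 and 2. With both drugs 12 of 17 were lower and 0 higher in KARPAS422, where 25.2% of all genes were lower. The 12 fell to 6 without VTP50469 replicate 1 or EPZ-6438 replicate 2 and stood at 10 to 17 without another library. In SuDHL10 3 of 18 were lower, beside 7.93% of all genes. That count was 0 without control replicate 2 or a library of both drugs, 1 without a VTP50469 library, and 8 and 7 without EPZ-6438 replicate 1 and 2.
Of 13 tested regulators of histone gene transcription, 9 were lower and 2 higher in KARPAS422 and in DB with MI-503, 10 and 0 in SUDHL5 and 4 and 1 in Farage, where 1 was lower without either DMSO library. The shares of all genes lower in KARPAS422, DB, SUDHL5 and Farage were 26.3%, 34.7%, 28.7% and 14.7%. The shares higher were 25.5%, 34.5%, 26.3% and 12.3%. Both drugs in KARPAS422 left 6 of 12 lower and 2 higher, where 25.2% of all genes were lower and 23.5% higher. There were 3 lower and 0 higher without VTP50469 replicate 1 or EPZ-6438 replicate 2. E2F1 was the gene of this list with the smallest p there (-1.16 ± 0.12, adjusted p = 0.00081).
Of 23 listed histone variants and replication-independent histones, MI-503 left 6 of 9 tested lower and 1 higher in KARPAS422, 7 and 3 of 10 in DB, 8 and 2 of 10 in SUDHL5 and 3 and 1 of 9 in Farage, where 1 was lower without either DMSO library. The background in these lines was 26.3%, 34.7%, 28.7% and 14.7% lower and 25.5%, 34.5%, 26.3% and 12.3% higher. Both drugs in KARPAS422 left 3 of 11 lower and 0 higher, a share near the 25.2% of all genes, and 8 were lower without replicate 1 of both drugs.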

How the data were processed

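RNA-seq of 2 libraries per group was used, grouped by the labels. The authors named an Illumina TruSeq RNA kit and removal of ribosomal RNA, read paired ends, aligned them to hg38 (HISAT2 2.1.0) and summarised them by gene (featureCounts 1.6.1). The deposited values are raw counts. The submitters' notes also name CASAVA 1.7 and Picard 2.23.1. The strand setting, the annotation and the rule for multiple matches are not given in the sources used. Values of gene copies and of overlapping genes are therefore uncertain.

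CPM was computed over library totals. Genes passing filterByExpr were scaled by TMM and fitted with the quasi-likelihood method of edgeR 4.0.16 (R 4.3.3). The SE of an edgeR log2 value is its absolute size divided by the square root of the F statistic of its test. Adjustment was by Benjamini-Hochberg over all genes of a fit, and a gene was called at an adjusted p under 0.1. The study's list for MI-503 also asked for a minimum fold change, which was not used here. MI-503 was fitted per line, line differences as an interaction or contrast, and the 8 combination libraries of a line together. Counts and sums cover all members, but 1 member is not reported here by itself. Members and gene lists were chosen with earlier results of these data known. Named by rule were the highest member per length of each family, up to 3 called members a direction with the largest fold change and up to 2 against the majority, the linker variants, members at the 1 CPM limit, up to 4 genes of a list with the smallest p, SLBP and NPAT. Others, such as H2AC6 where it was not called, were named after their values were seen. Just above 1 CPM lay H2BC8 (1.15), H4C8 (1.31), HIST1H4E (1.35) and HIST2H2BE (1.41), and just below H2BC6 (0.896), H2BC21 (0.874), HIST1H2BO (0.962) and HIST1H2BM (0.855).

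Replicates differed by more than sampling noise (chi-square per gene 1.70 to 41.9), so each was counted. Same-numbered combination libraries deviated together (correlations of 0.65 to 0.864 in KARPAS422 and 0.109 to 0.471 in SuDHL10 over 6 pairs of groups each), and their numbers were taken to pair them, from the data and not the labels. A deeper library has less counting error. Alternatives were RLE factors, library totals, no filter, DESeq2 1.42.0, the replicate block, other sets of libraries in a fit, members of at least 5 CPM and each library left out. Summing identical copies and a crossed pairing were added after seeing the data. Scripts were tested on simulated counts. Coordinates count from 1.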

Additional observations from a re-analysis of the deposited data

Results flagged for a closer look

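Results were listed here where the effect of a drug differed between lines by a test, or where libraries of the lines moved in opposite directions without a test. By the interaction test, the MI-503 effect in KARPAS422 minus that in Farage was 1.17 on the log2 scale for H2BC5 and 3.62 for H2AC18, the latter a gene with a near-identical copy. By the contrast of KARPAS422 and DB with Farage and SUDHL5 it was 0.90 for H1-10, 3.34 for H2AC18 and 0.76 for H2BC5. The H2AC18 contrast turned to -0.81 without SUDHL5 DMSO replicate 1.

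With EPZ-6438 and with both drugs, 3 genes called in either line lay above control in each treated KARPAS422 library and below it in SuDHL10. HIST1H2AG with each of these treatments and HIST1H2BG with both drugs had the same order but were not called. The difference was not tested because the times were 48 and 24 hours. The share of all genes with this order was not computed. With EPZ-6438 the KARPAS422 log2 fold changes were 0.78 for HIST1H2AC, 0.78 for HIST1H2BE and 0.21 for HIST1H4H, and with both drugs 2.81, 2.03 and 1.37. The SuDHL10 values were -0.59, -0.87 and -1.02 with EPZ-6438 and -0.34, -0.65 and -0.52 with both drugs.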

How the results depend on the processing

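Counts of called members moved by over 1.5 times under these settings, and where no construction explains it the cause was not tested. DESeq2 called 5 for MI-503 in KARPAS422, 2 in DB, 0 in Farage, 1 in SUDHL5 (the balance turned to lower) and 1 for KARPAS422 minus Farage, and 1 each for EPZ-6438 in KARPAS422, EPZ-6438 in SuDHL10 (turned to higher) and both drugs in SuDHL10. A joint fit of 16 libraries called 4 for MI-503 in KARPAS422. No filter gave 2 in Farage, 8 in SUDHL5, 4 for KARPAS422 minus Farage, 5 for the 4-line contrast, 1 for EPZ-6438 in KARPAS422 and 7 in SuDHL10. Fewer members reach 5 CPM, and of these 3, 2, 0 and 1 were called for MI-503 in KARPAS422, DB, Farage and SUDHL5 (turned to lower), 1 for KARPAS422 minus Farage, 5, 3, 6 and 5 for the DMSO levels of those lines and 8 for the control levels. Summed copies gave 0 in Farage. RLE gave 4 and library totals 3 (turned to higher) for EPZ-6438 in KARPAS422, and totals 1 for EPZ-6438 (turned to higher) and 1 for both drugs in SuDHL10. With only the compared groups, EPZ-6438 had 6 and both drugs 5 in KARPAS422, and EPZ-6438 1 in SuDHL10.

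The replicate block gave 5 for EPZ-6438 in KARPAS422, and in SuDHL10 8 for EPZ-6438, 4 for both drugs and 2 for both drugs against EPZ-6438. It moved no other count of called members by over 1.5 times. In the MI-503 table the numbers did not pair the libraries (correlations -0.0201, 0.00715, -0.0309 and -0.248 for KARPAS422, DB, Farage and SUDHL5). The crossed pairing in SUDHL5, added after seeing the data, gave 6 called members against 4, and the block 3.

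With 1 library left out, the counts ranged from 0 to 3 in Farage, 2 to 9 in SUDHL5, 1 to 4 for KARPAS422 minus Farage and 1 to 4 for the 4-line contrast. In KARPAS422 they ranged from 0 to 6 for EPZ-6438, 0 to 2 for VTP50469, 5 to 9 for both drugs and 0 to 6 for both against EPZ-6438, and in SuDHL10 from 0 to 5 for EPZ-6438, 0 to 4 for both drugs and 0 to 3 for both against EPZ-6438. Of 1349 values of single genes, 1147 kept direction and side of the threshold, 184 lost and 17 gained a call, and 1 reversed (H2AC18 in the 4-line contrast, -0.81 to 6.95). Over TMM library sizes the summed member CPM was 271.9 and 233.5 in KARPAS422, 52.48 and 91.25 in DB and 273.8 and 188.3 in SUDHL5 with DMSO and MI-503. In the combination table it was 95.46, 82.86, 82.12 and 92.12 for control, VTP50469, EPZ-6438 and both in SuDHL10, and 169.4, 159.9 and 237.2 for the 3 treatments in KARPAS422. Counting error is largest for members at the 1 CPM limit.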

Other observations

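Histone variants outside the naming rule of the combination table also differed between groups. H1FX, the older name of H1-10, was at 25.3 and 20.9 CPM in SuDHL10 control, 26.1 and 25.7 with VTP50469, 76.1 and 55.8 with EPZ-6438 and 65.4 and 70.6 with both drugs. The libraries with EPZ-6438 lay above all others, with a log2 fold change of 1.43 ± 0.17 for EPZ-6438 (edgeR, adjusted p = 0.0015) and 1.49 ± 0.17 for both drugs (0.0012). In KARPAS422 H1FX had -0.25 ± 0.12 with EPZ-6438 (adjusted p = 0.26) and 0.24 ± 0.12 with both drugs (0.15). H2AFJ, an H2A variant gene, was also higher in SuDHL10 with EPZ-6438 (0.83 ± 0.17, adjusted p = 0.017) and with both drugs (0.84 ± 0.17, 0.013).

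H2AFZ and H2AFX, which encode the variants H2A.Z and H2A.X, were lower in KARPAS422 with both drugs (log2 fold changes -1.23 ± 0.10 and -1.19 ± 0.13, adjusted p = 0.00046 and 0.0010). With MI-503 the same genes, as H2AZ1 and H2AX, were lower in KARPAS422 (-0.59 ± 0.03 and -0.89 ± 0.05), DB (-0.99 ± 0.03 and -0.83 ± 0.04) and SUDHL5 (-0.59 ± 0.04 and -0.73 ± 0.06). In Farage H2AX was lower (-0.33 ± 0.05, adjusted p = 0.0027), and H2AZ1 had -0.05 ± 0.04 (0.40).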
